A study of Homo sapiens with 2 samples.

Results

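The CXC chemokine cluster of chromosome 4q13 comprised 9 protein-coding genes, of the 19974 on chromosomes 1 to 22 and X. In chromosome order these are CXCL8, CXCL6, PF4V1, CXCL1, PF4, PPBP, CXCL5, CXCL3 and CXCL2, which lie between positions 73740569 and 74099195 of chromosome 4 (hg38). Members were taken by RefSeq symbol, and every peak overlapping a gene span or the 20 kb on either side was counted once. The cluster was selected on earlier results from these same peak lists, in which PF4 had already stood out. Its peak numbers, positions, widths and overlaps are therefore a description and carry no test.

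The marks were mapped by chromatin immunoprecipitation and sequencing (ChIP-seq) in FaDu, an established squamous carcinoma cell line of the head and neck. The target, per the sample labels, was H4K5ac, histone H4 acetylated at lysine 5, although the text on the series names another histone mark. There was 1 library from FaDu cells in normoxia and 1 from FaDu cells held in 1% oxygen for 18 h. Knockdown of METTL4 is mentioned in the culture text for both libraries, and no label gives it to either. With 1 library per condition there was no replicate check, and intervals below cover counting error only.

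CXC chemokines are small secreted proteins that steer leukocytes. CXCL1, CXCL2, CXCL3, CXCL5, CXCL6, CXCL8 and the processed form of PPBP carry a short glutamate-leucine-arginine motif, bind the receptors CXCR1 or CXCR2, and draw in neutrophils and promote new vessels. PF4 and PF4V1 lack that motif, are known from platelets, and act against vessel growth. In epithelial and squamous tumour cells the neutrophil-attracting members are classical targets of the transcription factor NF-κB. Acetylation of the histone H4 tail accompanies active promoters and is read by bromodomain proteins.

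The 130 bases before the transcription start are printed for 8 members, because the genes that carried H4K5ac at the start in both conditions differ from the others in their CpG content. They come from the RefSeq promoter table of GRCh38.p14, in which 8 of the 9 members matched, PF4 being the other. Each reads 5′ to 3′ in the direction of transcription. Capitals mark the letters GGAATTTCC and ATAAA of the TATA-box region. The former overlap the 10-base NF-κB pattern searched here in each member that holds them except CXCL8.
CXCL1, chr4:73869263-73869392, plus strand: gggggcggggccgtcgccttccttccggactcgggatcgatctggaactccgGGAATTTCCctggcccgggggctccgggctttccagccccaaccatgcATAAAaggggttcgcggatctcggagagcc
CXCL2, chr4:74099196-74099325, minus strand: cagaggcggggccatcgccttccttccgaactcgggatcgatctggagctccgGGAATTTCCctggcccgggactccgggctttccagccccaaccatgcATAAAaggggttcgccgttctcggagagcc
CXCL3, chr4:74038690-74038819, minus strand: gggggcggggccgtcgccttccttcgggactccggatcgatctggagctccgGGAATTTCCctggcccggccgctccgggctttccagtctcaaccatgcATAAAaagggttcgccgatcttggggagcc
CXCL5, chr4:73998678-73998807, minus strand: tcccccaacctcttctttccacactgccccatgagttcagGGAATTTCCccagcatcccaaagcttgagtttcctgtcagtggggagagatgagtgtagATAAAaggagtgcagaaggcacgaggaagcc
CXCL6, chr4:73836548-73836677, plus strand: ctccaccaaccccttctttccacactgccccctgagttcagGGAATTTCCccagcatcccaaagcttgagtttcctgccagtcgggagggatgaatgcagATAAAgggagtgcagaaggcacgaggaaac
PF4V1, chr4:73853166-73853295, plus strand: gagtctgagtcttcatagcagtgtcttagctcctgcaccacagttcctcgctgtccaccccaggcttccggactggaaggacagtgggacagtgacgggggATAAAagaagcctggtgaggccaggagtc
CXCL8, chr4:73740439-73740568, plus strand: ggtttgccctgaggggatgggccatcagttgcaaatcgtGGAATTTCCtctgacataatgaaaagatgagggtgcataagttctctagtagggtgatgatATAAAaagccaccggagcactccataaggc
PPBP, chr4:73988191-73988320, minus strand: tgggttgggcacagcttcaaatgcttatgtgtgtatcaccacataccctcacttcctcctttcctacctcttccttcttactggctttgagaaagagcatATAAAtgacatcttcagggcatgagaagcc

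H4K5ac was found at the starts of CXCL1, CXCL2 and CXCL3 in both conditions, at the gene ends of CXCL5, CXCL6, PF4 and PF4V1 in hypoxia alone, and at neither end of CXCL8 and PPBP in either condition. A gene is called marked here where a peak reached within 1000 bp of the low- or high-coordinate end of its span. By this rule 4 of 9 members were marked in hypoxia alone, against 11.7% of all protein-coding genes. Marking in both lists held for 3 of 9 members, against 69.3% of all genes. No member was marked in normoxia alone. Members marked at all thus numbered 3 of 9 in normoxia, against 70.4% of all genes, and 7 of 9 in hypoxia, against 81.0%. The cluster therefore differed from all genes mainly by few marks in normoxia. By RefSeq transcription starts, 3 of the 8 members with a start in the promoter table (CXCL5, CXCL6 and PF4V1) had a peak within 1000 bp in hypoxia alone, against 9.94% of 15812 genes with a start.

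**Figure D1:**
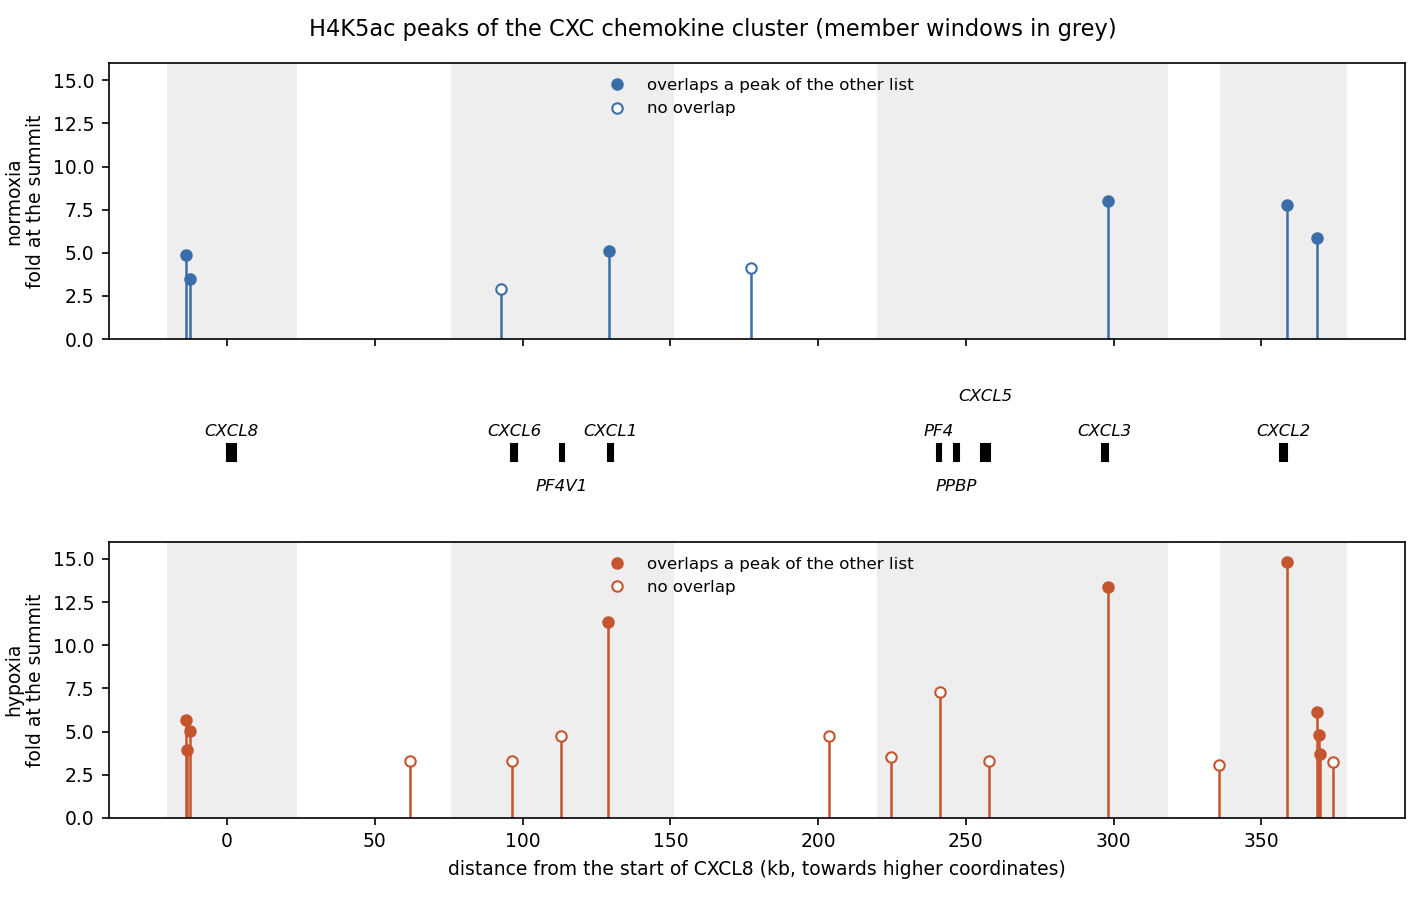
Fold enrichment at the summit of each H4K5ac peak (vertical axis, the authors' values, each relative to its own library) by distance from the start of CXCL8 in kb (horizontal axis), for the normoxia list above the genes and the hypoxia list below. Filled points overlap a peak of the other list and open points do not; the tallest stems in hypoxia stand at CXCL2, CXCL3 and CXCL1, and the open hypoxia points at CXCL6, PF4V1, PF4 and CXCL5 have no normoxia counterpart.

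CXCL1, CXCL2 and CXCL3, the closely related growth-regulated chemokines, held the highest peaks of the cluster in hypoxia. In normoxia CXCL3 and CXCL2 had the highest folds, and the distal peak upstream of CXCL2 (fold 5.87, 50 reads) stood above that of CXCL1 (5.09, 33 reads). The reads covering a summit (pileup) and the local background were worked out from the deposited fold and p-value. At CXCL1 the normoxia summit had 33 reads (95% Poisson interval 22.7 to 46.3) over a background of 5.68, and the hypoxia summit had 82 (65.2 to 102.0) over 6.32. At CXCL3 there were 44 reads (32.0 to 59.1) over 4.63 in normoxia and 83 (66.1 to 103.0) over 5.27 in hypoxia. At CXCL2 there were 70 reads (54.6 to 88.4) in normoxia and 134 (112.0 to 159.0) in hypoxia, both over a background of 8.11. The counting intervals of the 2 libraries did not overlap at any of these starts, and the local backgrounds were within 1 read of each other. These intervals make no allowance for the shift between the lists. Over all genes with a start peak in both lists, the median ratio of hypoxia to normoxia reads was 1.42.

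The hypoxia list carried higher folds at most starts of the genome, so the values at these 3 genes are set beside that shift. The fold at CXCL1 was 5.09 in normoxia and 11.34 in hypoxia, against 7.99 and 13.40 at CXCL3, and 7.79 and 14.83 at CXCL2. The hypoxia to normoxia ratio was thus 2.23 at CXCL1, 1.90 at CXCL2 and 1.68 at CXCL3. Over 10943 genes with a start peak in both lists the median ratio was 1.32, with quartiles of 1.15 and 1.5. A ratio of at least 1.5 was found for 3 of these 3 members and for 24.6% of the genes. A ratio as high as that of CXCL1 was found for 0.567% of genes, as high as that of CXCL2 for 3.03%, and as high as that of CXCL3 for 10.2%. Among 5761 genes with a normoxia fold from 5 to under 8, the range of these members, the median was 1.33. The ratio of reads at the summit was 2.48 at CXCL1, 1.91 at CXCL2 and 1.89 at CXCL3, against a median of 1.42, and 1.31%, 10.2% and 11.2% of genes were as high. Read totals were not given in the sources used here, and an effect of the condition cannot be told apart from a difference between the single libraries.

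**Figure D2:**
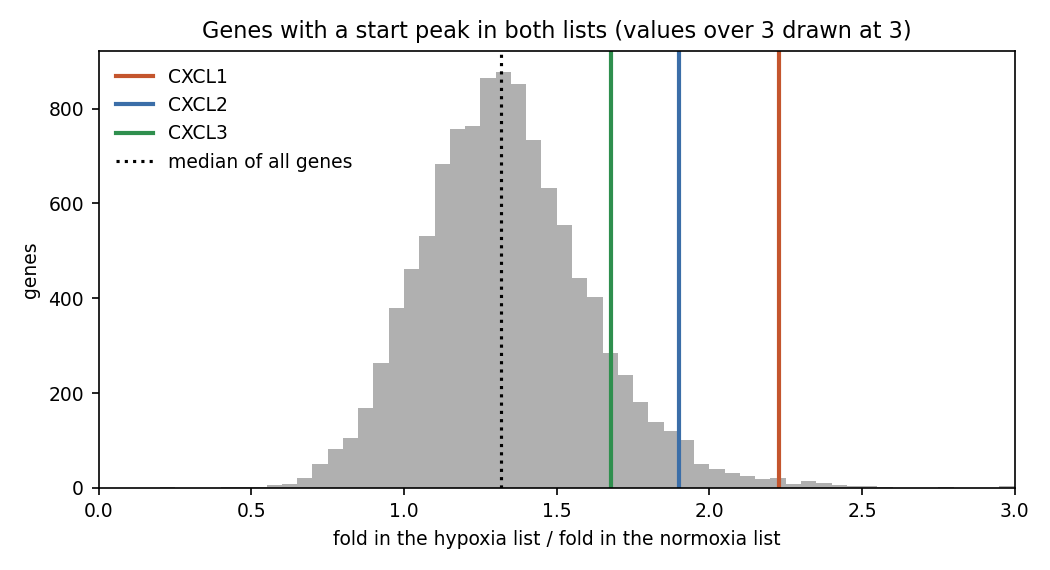
Number of genes (vertical axis) by the ratio of the hypoxia to the normoxia fold at the start (horizontal axis), for 10943 genes with a start peak in both lists. The coloured lines for CXCL3 (1.68), CXCL2 (1.90) and CXCL1 (2.23) lie to the right of the dotted median of 1.32.

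The peaks at these 3 starts were narrower in hypoxia and lay within the normoxia peaks. The CXCL1 peak spanned 1119 bp in normoxia, from 496 bp before the start to 622 bp after it, and 987 bp in hypoxia, from 415 bp before to 571 bp after. The CXCL3 peak spanned 1162 bp, from 586 bp before to 575 bp after, and then 1014 bp, from 449 bp before to 564 bp after. The CXCL2 peak spanned 1451 bp, from 537 bp before to 913 bp after, and then 977 bp, from 411 bp before to 565 bp after. The hypoxia peaks thus covered nearly the same stretch around each of the 3 starts. The ratio of hypoxia to normoxia width was 0.882 at CXCL1, 0.873 at CXCL3 and 0.673 at CXCL2, against a median of 0.907 over genes with a start peak in both lists, of which 68.8% were narrower in hypoxia. The smallest width listed was 245 bp in normoxia and 215 bp in hypoxia, and its part in the widths was not tested.

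Summits lay closer to the start in hypoxia at CXCL1 and CXCL3. The CXCL1 summit lay 244 bp downstream of the start in normoxia and 62 bp downstream in hypoxia, a displacement of 182 bp. The CXCL3 summit lay 43 bp upstream in normoxia and 2 bp upstream in hypoxia. The CXCL2 summit lay 60 bp downstream in normoxia and 59 bp upstream in hypoxia, a displacement of 119 bp at nearly the same distance from the start. The median displacement over genes was 50 bp with an upper quartile of 141 bp, so only the CXCL1 displacement lay beyond that quartile. The CXCL3 peak also overlapped the low-coordinate end of LOC105377275, a long non-coding RNA gene, in both lists, so its reads cannot be given to 1 of the 2 genes.

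**Figure D3:**
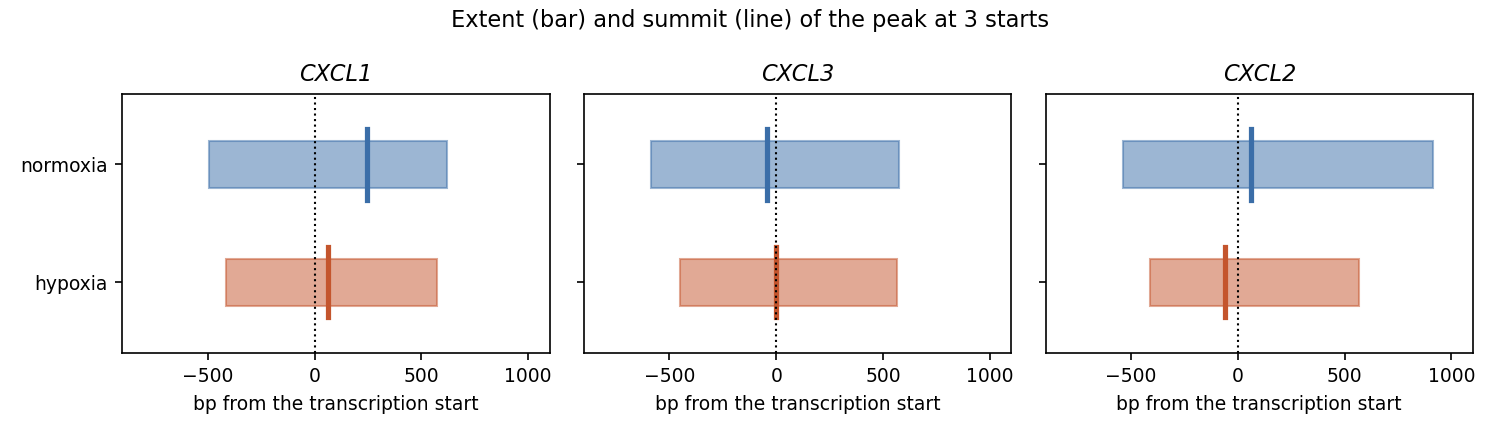
Extent (bars) and summit (thick lines) of the peak at the starts of CXCL1, CXCL3 and CXCL2 in bp from the transcription start (horizontal axis, positive in the direction of transcription), in normoxia above and hypoxia below. The hypoxia bar is shorter in each panel, by most at CXCL2 (977 against 1451 bp).

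CXCL5 and CXCL6, a pair of similar neutrophil chemokines, each carried a weak hypoxia peak just inside the gene and no normoxia peak at either end. The CXCL6 peak (chr4:73836707-73836948) was 242 bp wide with its summit 139 bp downstream of the start. The CXCL5 peak (chr4:73998433-73998669) was 237 bp wide with its summit 202 bp downstream. Both summits had 13 reads (6.92 to 22.2) over a background of 3.24, the lowest of the hypoxia list, and a fold of 3.30. The −log10 q was 3.26 for both, below the 10 from which a peak is called strong here. Folds this high were found at 57.0% of the 2339 gene ends marked in hypoxia alone, whose median was 3.40. The lowest pileup listed over the lowest background was 9 reads in either list, so these peaks stood only a few reads above what was listed at all.

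The closest normoxia peaks were far from CXCL5 and nearer to CXCL6. A normoxia peak of 11 reads (5.49 to 19.7) and a fold of 2.91 lay 3248 bp from CXCL6, upstream of its start, and overlapped no hypoxia peak. It was the only normoxia peak of the member windows that the hypoxia list did not overlap. For CXCL5 the nearest normoxia peak was 39437 bp away. The CXCL5 peak also overlapped LOC124900715, a long non-coding RNA gene.

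PF4, which encodes platelet factor 4, had the strongest peak of the cluster that was listed in hypoxia alone. The peak (chr4:73981622-73982119) lay inside the gene, with its summit 206 bp from the high-coordinate end, and was 498 bp wide. It had 30 reads (20.2 to 42.8) over a background of 3.24, a fold of 7.31 and a −log10 q of 17.0. Of the 2339 gene ends marked in hypoxia alone, 11.2% had a strong peak, and PF4 ranked at position 19 by fold. The nearest normoxia peak was 55990 bp away.

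PF4V1, a close copy of PF4, also had a peak in hypoxia alone. The peak (chr4:73853272-73853606) was 335 bp wide with its summit 109 bp downstream of the start. It had 19 reads (11.4 to 29.7) over 3.24, a fold of 4.72 and a −log10 q of 7.35, which was not strong. Of gene ends marked in hypoxia alone, 13.5% had a fold as high. The nearest normoxia peak to PF4V1, at 14414 bp, was that of CXCL1. Reads of PF4 and PF4V1 are uncertain, since the copies are alike, the reads were 75 bases long and the handling of reads with several matches is not given in the sources used here.

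PPBP, which encodes the precursor of platelet basic protein and lies between PF4 and CXCL5, had no peak at either end in either list. The nearest hypoxia peak was that of PF4, 4320 bp away, and the nearest normoxia peak was 49924 bp away. PF4 and PPBP, the platelet genes that are neighbours, thus differed in the hypoxia list. Elsewhere in the PF4 window lay the CXCL5 peak and a hypoxia peak of 14 reads with a fold of 3.54.

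**Figure D4:**
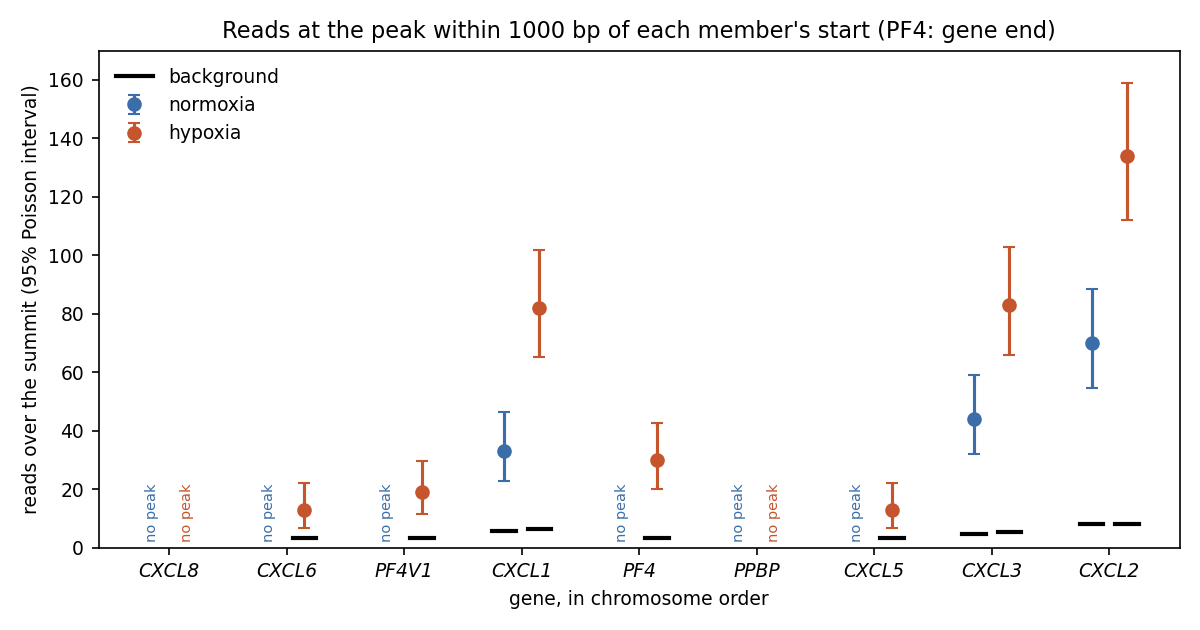
Reads over the summit (points) with 95% Poisson intervals (bars) and local background (black dashes) for the peak within 1000 bp of the start of each member, or of a gene end for PF4, with genes in chromosome order on the horizontal axis. Normoxia peaks appear at CXCL1, CXCL3 and CXCL2 only; hypoxia peaks appear at 7 members, from 13 reads at CXCL6 and CXCL5 to 134 at CXCL2.

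CXCL8, which encodes interleukin-8, had no peak at its start or end in either list, and its peaks lay upstream. The nearest peaks were 12577 bp away in normoxia and 12589 bp away in hypoxia. This upstream region held 2 normoxia peaks, of 25 reads (16.2 to 36.9) and 18 reads (10.7 to 28.4). It held 3 hypoxia peaks, of 23 (14.6 to 34.5), 16 (9.15 to 26.0) and 21 reads (13 to 32.1). The first normoxia peak (chr4:73726343-73727144) corresponded to a pair of hypoxia peaks, and its summit was 8 bp from that of the first of them. The counting intervals of the 2 libraries overlapped here. Those at the starts of CXCL1, CXCL2 and CXCL3 did not, with no allowance made for the shift between the lists. Backgrounds were 4.34 and 4.46 in normoxia, and 3.24, 3.33 and 3.35 in hypoxia. Folds were 4.87 and 3.48 in normoxia, and 5.66, 3.92 and 5.05 in hypoxia. The fold was thus higher in hypoxia at the summit 8 bp from the first normoxia summit and at that 80 bp from the second. Reaching into the window from its upstream edge lies INKILN, a long non-coding RNA gene whose span held 3 peaks in each list, whereas UMLILO, a shorter long non-coding RNA gene within it, held none in either.

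A distal region about 10 kb upstream of CXCL2 was split in the hypoxia list. In normoxia it was a single peak (chr4:74109328-74110646) of 1319 bp, with 50 reads (37.1 to 65.9) over 7.69 and a fold of 5.87. In hypoxia it was 3 peaks of 395, 341 and 366 bp, with 32, 27 and 21 reads over 4.36, 4.84 and 4.92. Their folds were 6.15, 4.80 and 3.71. The normoxia summit was 13 bp from the nearest hypoxia summit. By reads alone, the normoxia summit was above each of the 3 hypoxia summits, the opposite order to the CXCL2 start. The normoxia background was also higher, and the normoxia interval overlapped those of the first (21.9 to 45.2) and second (17.8 to 39.3). By fold, the first hypoxia peak was above the normoxia peak (6.15 against 5.87), the same order as at the CXCL2 start. The other hypoxia peaks were below it. Of all normoxia peaks that overlapped the hypoxia list, 6.99% met 2 or more hypoxia peaks, against 2 of 6 in the member windows. A further hypoxia peak of 16 reads in the CXCL2 window lay at the low-coordinate end of MTHFD2L, a folate-pathway enzyme gene.

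Over the 4 merged member windows, 257814 bp in all, there were 7 normoxia and 15 hypoxia peaks, a ratio of 2.14 that was close to the 2.15 of the whole lists and the 1.99 of chromosome 4. Covered length hardly differed, at 6524 bp in normoxia and 7075 bp in hypoxia, of which 4928 bp were covered in both. The ratio was 1.08, against 1.69 for the whole lists. With a −log10 q of 10 or more normoxia covered more (5051 against 4598 bp), as with equal list lengths (6524 against 5940 bp). With 5 or more hypoxia covered slightly more (5940 against 5853 bp). Median width was 1119 bp (267 to 1451) in normoxia and 366 bp (237 to 1014) in hypoxia, against 356 and 294 bp in the whole lists. These medians are over unlike sets, since the hypoxia peaks included split regions and peaks with no normoxia counterpart. At the starts of CXCL1, CXCL2 and CXCL3 the ratio of hypoxia to normoxia width was 0.673 to 0.882. Of the normoxia peaks 6 of 7 (85.7%, 95% exact binomial interval 42.1 to 99.6%) overlapped a hypoxia peak, against 68.7% of the whole list. Of the hypoxia peaks 9 of 15 (60.0%, 32.3 to 83.7%) overlapped a normoxia peak, against 32.7%. Among the 9 were the pair upstream of CXCL8 and the 3 distal peaks upstream of CXCL2, each set facing a single normoxia peak. Strong peaks numbered 4 of 7 in normoxia and 7 of 15 in hypoxia, against 29967 of 120033 and 48782 of 258195 in the whole lists. Of strong peaks in the whole lists, 98.3% in normoxia and 86.6% in hypoxia overlapped the other list. Hypoxia peaks outnumbered normoxia peaks in the windows of 8 of 9 members, against 85.7% of all genes, a share near the background. Member windows were sparse, with medians of 1 normoxia and 2 hypoxia peaks per gene, against 5 and 9 over all protein-coding genes. The peak nearest the edge of a window on the inside was that at MTHFD2L, 4206 bp from it, and the nearest outside was a hypoxia peak of 12 reads at a distance of 810 bp.

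Most of the difference in gene ends marked rested on weak peaks. With the hypoxia list limited to as many peaks as the normoxia list, 2 members (PF4 and PF4V1) were marked in hypoxia alone, against 5.68% of genes. With peaks under a −log10 q of 5 left out of both lists, these 2 were again the members marked in hypoxia alone, against 8.87% of genes. With those under 10 left out, PF4 alone was left, against 6.91% of genes. CXCL1, CXCL2 and CXCL3 were marked in both lists under each of these limits.

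The printed sequences of CXCL1, CXCL2 and CXCL3 are richer in CpG than the others. The 130 bases before the start held 12 CpG at CXCL1, 12 at CXCL3 and 11 at CXCL2, which were marked in both lists. They held 3 at PF4V1, 2 at CXCL6 and 1 at CXCL5, which were marked in hypoxia alone, and 2 at CXCL8 and 0 at PPBP, which were marked in neither. Over all genes the median was 13 CpG for starts marked in both lists, 5 for those marked in hypoxia alone and 2 for those marked in neither. The letters GGAATTTCC, searched on both strands after the sequences had been read, were found in 6 of 8 members, from 77 to 91 bases before the start, and in 0.405% of 15813 protein-coding promoters of the same 300 bases. The members were CXCL1, CXCL2, CXCL3, CXCL5, CXCL6 and CXCL8, so the letters were present in members marked in both lists, in hypoxia alone and in neither. A 10-base NF-κB consensus pattern overlaps these letters and was found in the same members but CXCL8 (5 of 8, against 12.3%). Sites that depart from this pattern were not counted, so its absence does not mean that CXCL8 lacks an NF-κB site. Of the hypoxia response element cores, ACGTG was in 0 of 8 members (23.7% of promoters) and GCGTG in CXCL5 alone (44.1%). The AP-1 motif TGANTCA was in CXCL8 alone (5.75%). ATAAA stood between 40 and 21 bases before the start in 8 of 8 members, against 5.92% of promoters. Several of these promoters are alike in sequence, so the members are not separate occurrences of a motif.

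Promoters of the 3 CXCL1-type genes were alike, as were those of CXCL5 and CXCL6. Over the 300 bases of the table, CXCL1 and CXCL3 were 82.5% identical, CXCL3 and CXCL2 73.8%, and CXCL1 and CXCL2 71.9%. CXCL5 and CXCL6 were 83.1% identical. The longest stretch shared without a mismatch was 45 bases (CXCL5 and CXCL6), below the read length of 75. None of the 226 possible 75-base reads of each of the 8 promoters occurred in a promoter at another place among 35116 in the table. This covers promoters only, which take in part of the PF4V1 peak and none of the PF4 peak. PF4 has no promoter in the table, so PF4V1 was not compared with PF4, and their likeness was not tested.

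Around the cluster, 10 named 4q13 neighbours were examined in the same way. Of these, 5 were marked at a gene end in both lists (69.3% of all genes), 1 in hypoxia alone (MTHFD2L, fold 3.26; 11.7% of all genes) and 4 in neither, among them the liver genes ALB and AFP. The MTHFD2L peak is the one already counted in the CXCL2 window. The MTHFD2L window also takes in the CXCL2 start and distal peaks, so the neighbour counts are not separate from the cluster. More hypoxia than normoxia peaks were found in the windows of 5 of 10 (85.7% of all genes). Hypoxia peaks were equal in number in 3 and fewer in 2. The epidermal growth factor receptor ligand genes EREG (fold 4.43 in normoxia, 9.94 in hypoxia), AREG (9.75 and 16.08) and BTC (9.03 and 12.74) were marked in both, as was PARM1 (6.53 and 8.63). RASSF6, the fifth of them, had the lower fold in hypoxia (6.21 and 4.95).

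Other genes of the pathway were described from lists chosen with results of these data known, and their counts stand beside 11.7% of all genes marked in hypoxia alone and 69.3% marked in both. Of the 4q21 chemokines, which attract lymphocytes, CXCL11 was marked in hypoxia alone (fold 4.01) and CXCL9, CXCL10 and CXCL13 in neither. Of 4 further CXC chemokines, CXCL14 (3.54 and 5.38) and CXCL16 (6.69 and 4.99) were marked in both lists and CXCL12 and CXCL17 in neither. Of 8 receptor genes, CXCR4 (4.94 and 5.16) and CXCR2, the main receptor of the neutrophil-attracting members (2.84 and 3.72), were marked in both. ACKR1, ACKR3 and CXCR3 were marked in hypoxia alone with folds of 2.9, 3.27 and 4.24, and CXCR1, CXCR5 and CXCR6 in neither. Of 19 NF-κB pathway genes, 17 were marked in both, IL1R1, the interleukin-1 receptor gene, in normoxia alone (2.9), and TNF in neither. Those with the highest hypoxia folds were NFKBIZ (7.72 in normoxia, 12.45 in hypoxia), RELB (9.80 and 11.64), the kinase gene CHUK (6.93 and 11.22) and NFKB1 (6.85 and 10.55). The gene-end fold was higher in hypoxia for 15 of the 17, against 88.8% of the 13849 genes marked in both lists, and the median ratio was 1.24, against 1.31. It was lower for IL1A, an interleukin-1 gene (5.32 and 5.12), and for the transcription factor gene CEBPB (4.03 and 3.92). IL1B is counted among the 15, although its fold hardly differed (2.909 and 2.911).

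Marker genes of the FaDu lineage and of other cell types were examined by the same rule, by which 70.4% of all genes were marked in normoxia and 81.0% in hypoxia. Of 10 squamous epithelium markers, 9 were marked at a gene end in normoxia and 10 in hypoxia, TP63 (fold 5.66) in hypoxia alone. The TP63 window held 28 normoxia and 40 hypoxia peaks, and this rule does not see starts inside a gene. TP63 is thus not shown to be without the mark in normoxia. Of 8 megakaryocyte and platelet markers, 6 were marked in normoxia and 5 in hypoxia, of which 4 were shared. The glycoprotein gene GP9 was marked in hypoxia alone, GP6 and TUBB1 in normoxia alone, and ITGA2B in neither. Of 6 leukocyte markers, 2 were marked in normoxia and 5 in hypoxia. Those marked in hypoxia alone were CSF3R (2.77), CD3E (5.05) and ITGAM (4.95), and PTPRC was marked in neither list. Of 4 endothelium markers, 1 was marked in normoxia and 3 in hypoxia, with CDH5 (2.45) and PECAM1 (3.19) in hypoxia alone.

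**Figure D5:**
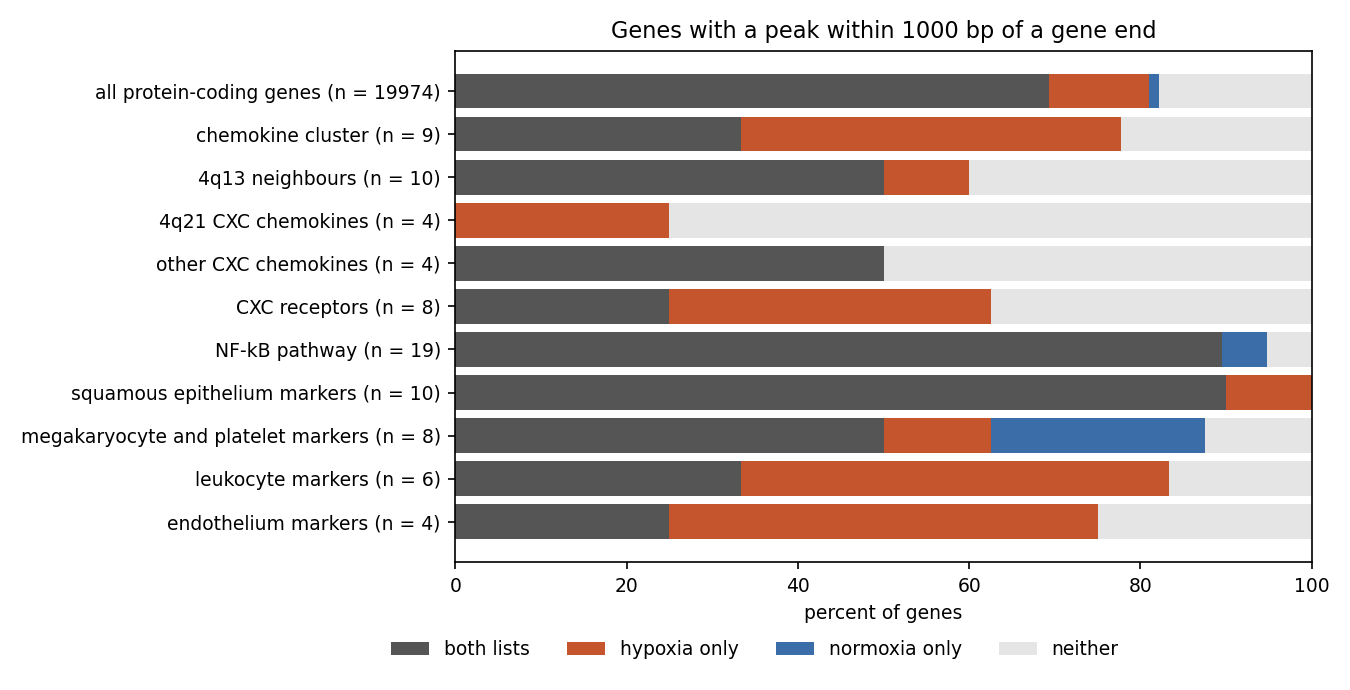
Percent of genes (horizontal axis) with an H4K5ac peak within 1000 bp of a gene end in both lists, in hypoxia only, in normoxia only or in neither, for all protein-coding genes, the chemokine cluster and the lists compared with it. The hypoxia-only part is 4 of 9 genes in the cluster, 3 of 6 leukocyte markers, 2 of 4 endothelium markers, 3 of 8 receptor genes and 11.7% of all genes.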

How the data were processed

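H4K5ac ChIP-seq peaks came from 2 libraries, 1 each from normoxia and hypoxia. MACS2, SICER and the build hg38 are named in the submitters' processing notes; which tool made the lists, the settings and any control were not given in the sources used here. The authors deposited 1 peak list per library giving each peak an integer score, a fold enrichment ratio, its p-value and q-value as −log10, and the offset of its summit. The lists held 120033 and 258195 peaks.

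Pileup c and background b were solved from fold = (c + 1) / (b + 1) and p as the Poisson tail above c, and a whole pileup gave the deposited −log10 p to within 0.001 for 100.0% of peaks. The lowest background was 3.13 reads in normoxia and 3.24 in hypoxia. Overlap meant at least 1 bp. Gene spans came from the RefSeq table of GRCh38.p14, and starts from its promoter table. That genome build is the one hg38 names. Gene windows overlap, and exons and introns were not distinguished. Promoters were aligned globally (match 1, mismatch -1, gap opening -2, extension -0.5) with Biopython 1.88. Python 3.11.15, pandas 2.3.3, numpy 2.4.6 and scipy 1.17.1 were used, and scripts were tested on simulated data. No p-values were computed for the conditions. All members were named whatever their values. Of the other lists, genes marked in 1 condition alone were named, with up to 4 of the highest hypoxia folds. Some genes marked in neither list were named after their values were seen. Members, lists and rules were chosen with earlier results of these data known. Alternatives were stricter and equal-length lists, other windows, overlaps and gene-end distances.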

Additional observations from a re-analysis of the deposited data

How the results depend on the processing

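Of 83 values recomputed for 12 results, 58 were inside the interval of the main share or less than 1.5 times away from the main value, and 25 moved further. Some values could not move, such as the normoxia count, width and covered length when the hypoxia list alone was shortened. The intervals of the shares were also wide, so the tally is no measure of stability. No paired analysis was possible because each condition had 1 library. Hypoxia peaks outnumbered normoxia peaks by 1.57 times (hypoxia list at the length of the normoxia list) to 2.33 times (gene spans alone) in every recomputed setting. In the former setting the whole lists were equal in length by construction, so the cluster ratio there was above that of the whole lists. With a −log10 q of 10 or more there were 4 normoxia and 7 hypoxia peaks, covering 5051 and 4598 bp. The whole lists then held 29967 and 48782 peaks. At that limit 100% of normoxia peaks were overlapped, and 5 members and 2 neighbours had more hypoxia peaks. Marked in hypoxia alone was 1 member, against 6.91% of all genes. At 5 or more, 100% of normoxia peaks were overlapped and 2 members were marked in hypoxia alone (8.87% of all genes). With equal list lengths 2 members were marked in hypoxia alone (5.68% of all genes) and 3 neighbours had more hypoxia peaks. Peaks then covered 6524 bp in normoxia and 5940 bp in hypoxia. Over gene spans alone there were 3 and 7 peaks covering 3732 and 4290 bp, with 100% of the 3 overlapped, and with 5 kb either side 4 and 7 peaks covering 4136 and 4290 bp. More hypoxia peaks were found for 4 members in either of these. The share of all genes with more hypoxia peaks was computed for the main setting only. These counts of members and neighbours with more hypoxia peaks therefore have no background. With 50 kb there were 12 normoxia peaks, with a median width of 603 bp. With a reciprocal overlap of 50%, 26.7% of hypoxia peaks were shared. Counting the whole interval, added after the data were seen, gave 8 and 18 peaks. Read totals are unknown, and the weakest hypoxia peaks at gene ends held 13 reads where 9 sufficed for listing in either library.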

Other observations

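Peaks in the gaps between the member windows are in none of the counts over those windows, and enter only the count over the whole interval and those over wider windows. The hypoxia list held 3 of them and the normoxia list 1. A hypoxia peak (chr4:73944089-73944749) overlapped CXCL1P1, a pseudogene of the CXCL1 family (73943995 to 73944493). It was 661 bp wide with 19 reads (95% Poisson interval 11.4 to 29.7) over a background of 3.24 and a fold of 4.72, and no normoxia peak lay there. Reads of the pseudogene and of its parent genes are uncertain in the same way as those of PF4 and PF4V1, and whether reads were placed between copies was not tested. The other gap peaks were a hypoxia peak of 13 reads 34116 bp upstream of the CXCL6 start, a hypoxia peak of 12 reads 23083 bp downstream of the CXCL2 start, and a normoxia peak of 16 reads 48369 bp downstream of the CXCL1 start. None of these 4 peaks was strong or overlapped the other list.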
